A study of Mus musculus with 12 samples.

Results

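The 10 genes described here encode the core of the MHC class I antigen presentation pathway in 4T1 cells, a transplantable mouse mammary tumour line. They are H2-K1, H2-D1, B2m, Tap1, Tap2, Tapbp, Psmb8, Psmb9, Erap1 and Psme1, and they were found by symbol among the 22880 features of a table of raw read counts. All 10 were in the table and all 10 passed the filter on low counts. RNA was sequenced from 12 libraries in 4 groups of 3. The mock group is 4T1 cells transfected with the plasmid pcDNA3.1, the MYBup group is 4T1 cells transfected with pcDNA3-mMyb so that they overexpress the Myb oncogene, the wt group is untransfected 4T1 cells, and the lung3 group is untransfected 4T1 cells passaged through the lung of mice 3 times. The labels give lung metastatic activity as normal for mock and wt, low for MYBup and high for lung3, so the comparisons of the study are MYBup against mock and lung3 against wt. None of the mock, MYBup or wt cells had been passaged in animals. Ages and strains of host animals, the promoter of the plasmids and whether each transfected line is a clone or a pool are not stated in the labels.

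MHC class I molecules show peptides from inside the cell to CD8 T cells. The proteasome cuts proteins into peptides, and interferon exchanges some of its catalytic subunits for the immunoproteasome subunits encoded by Psmb8 and Psmb9 and adds the PA28 activator, of which Psme1 encodes the alpha subunit. The peptides are pumped into the endoplasmic reticulum by the TAP transporter (Tap1 and Tap2), trimmed by the aminopeptidase encoded by Erap1, and loaded with the help of tapasin (Tapbp) onto a heavy chain (H2-K1 or H2-D1) that is held by the light chain beta-2 microglobulin (B2m). Tumour cells with little class I on their surface are seen less well by T cells and are less protected from natural killer cells.

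Class I heavy chain and light chain genes are known to share a short upstream control region. It has sites for NF-kB and interferon regulatory factors followed by an X2 and a Y box. Those boxes are only parts of the element that the class I transactivator NLRC5 acts through. The upstream stretches of H2-K1 and B2m are shown because B2m changed between groups below while the heavy chain did not pass the test, and both hold the same 4 motifs. The capitals mark matches, on either strand, to the NF-kB decamer, the IRF core AANNGAAA, the X2 core TGACG and the Y box core ATTGG. In H2-K1 the NF-kB decamer matches on both strands in overlapping frames. Sequences are from RefSeq, build GRCm38.p6, 5′ to 3′ in the direction of the gene.
H2-K1, chr17:34000353-34000470, minus strand, bases -123 to -6 from the start: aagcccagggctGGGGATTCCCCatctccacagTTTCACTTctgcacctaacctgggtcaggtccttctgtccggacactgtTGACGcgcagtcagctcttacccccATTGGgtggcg
B2m, chr2:122147538-122147644, plus strand, bases -149 to -43 from the start: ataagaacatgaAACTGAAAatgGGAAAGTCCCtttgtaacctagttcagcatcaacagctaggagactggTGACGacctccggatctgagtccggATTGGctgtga

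RefSeq windows of the 250 bases before a gene's start were matched for 9 of the 10 genes, Tap2 being the exception. The windows of H2-D1, Tap1, Tapbp, Psmb8, Psmb9 and Erap1 lie wholly in exons annotated by GENCODE, and 139 bases of that of Psme1 do, since they lie inside the model of the gene or, for Tap1, that of its neighbour Psmb9; their letters are therefore not shown, and they need not cover the control region of the main start. Those of H2-K1, H2-D1 and B2m held all 4 motifs, while the NF-kB decamer and IRF core were not found in the windows of the other 6, all of which overlap exons. Of all 32851 upstream windows of this length, 7.25% held the NF-kB decamer, 21.3% the IRF core, 17.8% TGACG and 33.8% ATTGG. Myb hexamers (CAACGG or CAACTG or TAACGG or TAACTG), found in 23.7% of all windows on either strand, matched in Tapbp and Erap1 and not in the windows of the other 7; both of those matches lie in annotated exons. These matches are a description of letters and say nothing on binding.

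Total counts ranged from 8912989 to 24745660 per library. Myb was 4.49 to 6.80 CPM (counts scaled to library size) in mock, 39.3 to 42.9 in MYBup, 4.27 to 5.75 in wt and 2.22 to 3.13 in lung3, which fits the labels. Epithelial markers (Epcam, Krt8, Krt18, Krt19, Cdh1 and Cldn7) summed to 1985 to 2759 CPM in every library, most of it Krt8 and Krt18. Cdh1 averaged 277 CPM in mock, 261 in MYBup, 481 in wt and 463 in lung3, and Cldn7 1.76, 1.15, 10.7 and 11.2. In mock against wt, edgeR called 2 of the 6 markers higher and 3 lower, beside 18.0% and 17.9% of all genes. Of 16 leukocyte markers 5 were at 0 counts in all libraries (Cd3e, Cd3g, Adgre1, Tyrobp and Nkg7), and the 15 without Cd14 summed to 0.227 to 0.970 CPM. Cd14, a receptor for bacterial lipopolysaccharide, was 7.71 to 10.7 CPM in mock, 5.23 to 5.95 in MYBup, 6.90 to 7.77 in wt and 11.02 to 13.97 in lung3; it was lower in MYBup against mock (-0.81, SE 0.152, adjusted p = 0.00179) and higher in lung3 against wt (0.83, SE 0.144, adjusted p = 0.00558), and whether it moves with the class I genes was not tested. Of 6 fibroblast markers Lum and Dpt had 0 counts, and Pdgfra, at 15.9 to 48.6 CPM, made up nearly the whole sum; without it the list reached at most 0.555 CPM. The 6 endothelial genes summed to at most 0.496 CPM and 6 lung epithelial genes to at most 0.208 CPM, with Sftpc, Sftpa1, Sftpb and Nkx2-1 at 0 counts. The MHC class II genes H2-Aa and H2-Ab1 averaged at most 0.103 CPM in any group and H2-Eb1 had 0 counts, all at or near 0. Cd74, of the class II pathway, averaged 0.540 CPM in mock, 0.629 in MYBup, 2.84 in wt and 7.85 in lung3. It reached 13.5 CPM in lung3 replicate 3. Mock replicate 3 and lung3 replicate 3 stood apart from their groups in inflammatory genes: the median of Il1a, Cxcl5, Cxcl1, Ccl2 and Lcn2 lay 1.52 and 1.30 log2 units below the group mean in them. The calls for the 10 genes and the named list genes that changed without those libraries are given below. Nothing says that replicates came from separate cultures, so p-values measure only the spread between these libraries. In bulk RNA, fewer expressing cells and less RNA per cell cannot be told apart.

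Per kilobase of exon, the light chain was the most abundant of the 10 transcripts in all groups, and Tap1 and Psmb9 were the least abundant. In wt cells B2m averaged 554.7 CPM per kb, H2-D1 136.6 and H2-K1 63.5. Tapbp followed with 25.8 and Psme1 with 24.01, and these neighbours overlapped between libraries. Erap1 averaged 7.003, Tap2 5.77 and Psmb8 4.83 CPM per kb, an order in which each neighbour overlapped the next. Tap1 averaged 1.20 and Psmb9 0.725 CPM per kb, and they overlapped too. In mock cells the same order held and no neighbours overlapped. Only ranks 6 to 8 changed elsewhere: Tap2 (4.98) stood above Erap1 (4.78) in MYBup, and Psmb8 (6.005) above Tap2 (5.08) in lung3, both with overlapping libraries. Thus these 4T1 cells carried abundant heavy and light chain transcripts beside low levels of Tap1 and of the immunoproteasome subunit gene Psmb9, whose counts per library ran from 9 to 82.

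**Figure D1:**
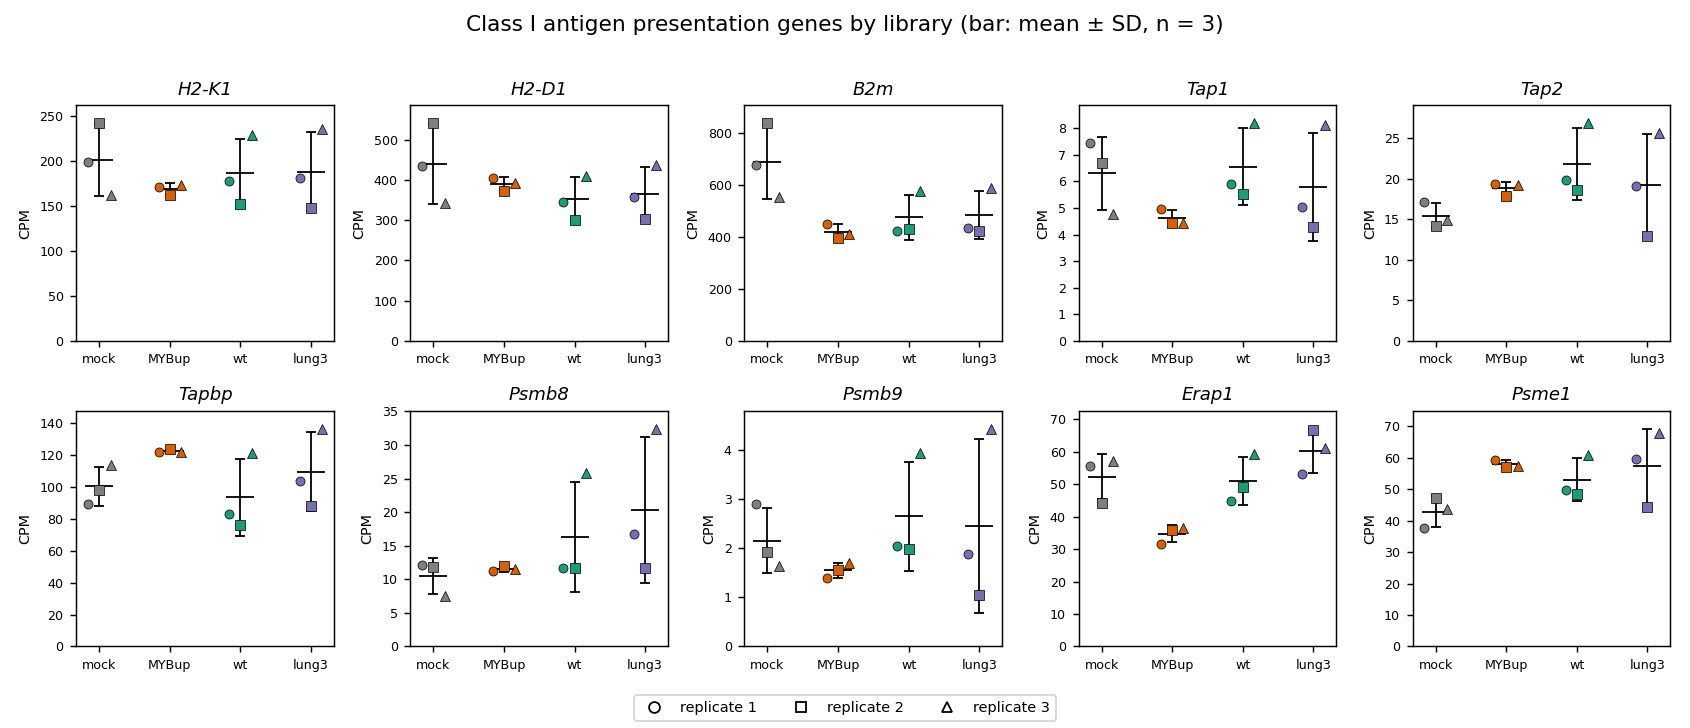
CPM (y axis, linear, TMM scaled) of each of the 10 genes by group (x axis). Points are libraries, with a shape for each replicate number, and bars give mean ± SD, n = 3; B2m is 555 to 840 CPM in mock and 398 to 452 in MYBup, Erap1 is lowest in MYBup, and wt replicate 3 is the highest wt library for all 10 genes.

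Against mock, MYBup cells had lower light chain and trimming enzyme transcripts and a higher PA28 transcript. The heavy chains and transporter genes did not pass the test. Of the 10 genes, 1 was called higher (Psme1) and 2 lower (B2m and Erap1) in MYBup against mock by edgeR's quasi-likelihood test at an adjusted p under 0.05, beside 26.9% of all 11291 tested genes called in either direction. A count of 3 in 10 is close to that background. Of the 3 genes, edgeR called only Erap1 in MYBup against wt as well (-0.55, adjusted p = 0.00471). B2m (-0.18, adjusted p = 0.411) and Psme1 (0.13, adjusted p = 0.494) were not called there. The groups did not overlap for 5 genes (B2m, Tap2, Tapbp, Erap1 and Psme1), beside 40.6% of all tested genes. The median log2 fold change of the 10 was -0.21, beside 0.0015 for all tested genes.

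B2m (ENSMUSG00000060802, chromosome 2, 122147686 to 122153083, plus strand) encodes the light chain shared by all class I heavy chains. Its level was 676.9, 839.9 and 555 CPM in mock, 452, 398 and 413.5 in MYBup, 425, 429.6 and 577 in wt, and 436, 425 and 590.4 in lung3. All mock libraries but replicate 3 lay above every library of the other groups, and all MYBup libraries lay below all mock libraries. B2m fell in MYBup against mock by 0.71 on the log2 scale (SE 0.165, adjusted p = 0.00618, edgeR), to 0.610 of the mock level. It kept its call in 21 of 21 other settings, with adjusted p from 0.000219 to 0.029. Without mock replicate 3 and lung3 replicate 3 the log2 fold change was -0.85 (adjusted p = 0.00115). Under that setting Erap1 (-0.53, adjusted p = 0.0231) and Psme1 (0.45, adjusted p = 0.0437) were also called, and Tap1 passed as a further gene (-0.63, adjusted p = 0.0333).

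The mock cells also differed from untransfected cells in this gene. B2m was higher in mock than in wt, by 0.53 on the log2 scale (SE 0.164, adjusted p = 0.022), and MYBup against wt was -0.18 (SE 0.164, adjusted p = 0.411, 95% interval -0.50 to 0.14). The mock against wt call ended without mock replicate 2, wt replicate 1 or wt replicate 2, where adjusted p was 0.0807, 0.0885 and 0.0817. The B2m level of MYBup was therefore shown to be lower than that of mock and not shown to differ from that of untransfected cells.

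Erap1 (ENSMUSG00000021583, chromosome 13, 74639568 to 74693201, plus strand) encodes the aminopeptidase that trims peptides in the endoplasmic reticulum. It stood at 55.7, 44.4 and 57.0 CPM in mock, 31.7, 36.0 and 36.6 in MYBup, 44.7, 49.1 and 59.2 in wt, and 53.0, 66.7 and 61.0 in lung3. Every MYBup library lay below every library of the other 3 groups. Erap1 fell against mock by 0.59 on the log2 scale (SE 0.128, adjusted p = 0.00435, edgeR) and against wt by 0.55 (SE 0.128, adjusted p = 0.00471), while mock and wt differed by 0.04 (SE 0.125, adjusted p = 0.827). Both falls were called in all 21 other settings run for each. Erap1 shares 834 exon bases, on opposite strands, with Cast, which encodes the calpain inhibitor calpastatin, and whether reads were counted by strand is not stated in the labels. Cast averaged 120 ± 8.23 CPM in mock and 104 ± 2.41 in MYBup (SD, n = 3), a log2 fold change of -0.22 (adjusted p = 0.0565). The part of Cast reads in the Erap1 counts was not tested.

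Psme1 (ENSMUSG00000022216, chromosome 14, 55578123 to 55581529, plus strand) encodes the alpha subunit of the PA28 proteasome activator. It was 37.8, 47.3 and 43.6 CPM in mock, 59.3, 57.0 and 57.3 in MYBup, 49.8, 48.4 and 60.9 in wt, and 59.5, 44.2 and 67.9 in lung3. The MYBup libraries lay above all mock libraries and within the range of wt and lung3. Psme1 rose in MYBup against mock by 0.43 on the log2 scale (SE 0.139, adjusted p = 0.0341, edgeR), and the call ended without MYBup replicate 1, 2 or 3, mock replicate 1 or mock replicate 3, with adjusted p of 0.078, 0.0723, 0.0756, 0.139 and 0.0548. MYBup against wt was 0.13 (SE 0.137, adjusted p = 0.494). Its partner Psme2, the beta subunit, had a log2 fold change of 0.16 against mock (SE 0.162, adjusted p = 0.499).

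The heavy chains did not pass the test. H2-K1 (ENSMUSG00000061232, chromosome 17, 33996017 to 34000347, minus strand) was 199, 243 and 163 CPM in mock, 171.5, 162 and 174 in MYBup, 178, 153 and 229 in wt, and 182, 148 and 236 in lung3. MYBup overlapped mock, with a difference of -0.25 on the log2 scale (SE 0.178, adjusted p = 0.322, 95% interval -0.60 to 0.10). H2-D1 (ENSMUSG00000073411, chromosome 17, 35262730 to 35267499, plus strand) was 436, 542 and 343 CPM in mock, 406, 374 and 391.5 in MYBup, 346, 300.1 and 411 in wt, and 358, 303 and 436 in lung3. Its MYBup libraries also lay within the mock range, with a difference of -0.17 on the log2 scale (SE 0.163, adjusted p = 0.461, 95% interval -0.49 to 0.15). H2-K1 and H2-D1 are members of a family of close copies: 9.63% of the 50-base words in the transcripts of H2-K1 and 12.8% of those of H2-D1 also occur in another gene, as do 0.957% and 3.59% of the 100-base words, so some reads could be split among them, fewer the longer the reads. The line derives from BALB/c mice, whose class I alleles differ from those of the reference genome, so the levels of both heavy chains are uncertain in all groups.

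The transporter genes lie next to the immunoproteasome genes on chromosome 17. Tap1 (ENSMUSG00000037321, 34187553 to 34197225, plus strand) was 7.45, 6.70 and 4.77 CPM in mock, 4.97, 4.44 and 4.43 in MYBup, 5.91, 5.54 and 8.20 in wt, and 5.02, 4.27 and 8.11 in lung3. Its MYBup libraries were near the bottom of the whole range and overlapped mock only through mock replicate 3. The log2 fold change against mock was -0.46 (SE 0.243, adjusted p = 0.177), and against wt, where the groups did not overlap, -0.51 (SE 0.238, adjusted p = 0.109). Tap2 (ENSMUSG00000024339, 34203527 to 34216321, plus strand) was 17.2, 14.2 and 15.0 CPM in mock, 19.3, 17.9 and 19.2 in MYBup, 19.9, 18.7 and 26.9 in wt, and 19.1, 12.9 and 25.6 in lung3. Here mock was the low group, below MYBup and wt without overlap, at log2 fold changes of 0.28 for MYBup against mock (SE 0.197, adjusted p = 0.319) and -0.49 for mock against wt (SE 0.192, adjusted p = 0.0615). Tapbp (ENSMUSG00000024308, chromosome 17, 33915899 to 33929292, plus strand), for tapasin, was 89.6, 98.2 and 113.5 CPM in mock, 122, 123.5 and 122 in MYBup, 83.1, 76.2 and 121 in wt, and 104, 88.3 and 137 in lung3. Its MYBup libraries were tightly grouped above all mock and wt libraries, at 0.29 against mock (SE 0.172, adjusted p = 0.24) and 0.39 against wt (SE 0.171, adjusted p = 0.0889), neither past the threshold. Tapbp shares 149 exon bases on the same strand with Zbtb22, which had log2 fold changes of 0.09 and 0.43 in those 2 comparisons, the second called (adjusted p = 0.00372). The part of Zbtb22 reads was not tested.

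The immunoproteasome subunit genes had the widest relative spread of the 10 in mock, wt and lung3. Psmb8 (ENSMUSG00000024338, chromosome 17, 34197721 to 34201454, plus strand), for the inducible subunit LMP7, was 12.2, 11.8 and 7.45 CPM in mock, 11.2, 11.98 and 11.5 in MYBup, 11.6, 11.6 and 25.8 in wt, and 16.8, 11.7 and 32.4 in lung3. Replicate 3 was the high library in wt and in lung3 and the low one in mock. MYBup against mock was 0.13 (SE 0.372, adjusted p = 0.821). Psmb9 (ENSMUSG00000096727, chromosome 17, 34181987 to 34187764, minus strand), for the inducible subunit LMP2, was 2.89, 1.93 and 1.63 CPM in mock, 1.39, 1.55 and 1.71 in MYBup, 2.04, 1.98 and 3.93 in wt, and 1.89, 1.04 and 4.44 in lung3. Its MYBup libraries lay below all wt libraries, with a difference of -0.75 on the log2 scale (SE 0.425, adjusted p = 0.179), and overlapped mock, at -0.49 (SE 0.445, adjusted p = 0.448). Tap1 and Psmb9 share 212 exon bases on opposite strands, and reads there cannot be told apart without a strand setting.

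**Figure D2:**
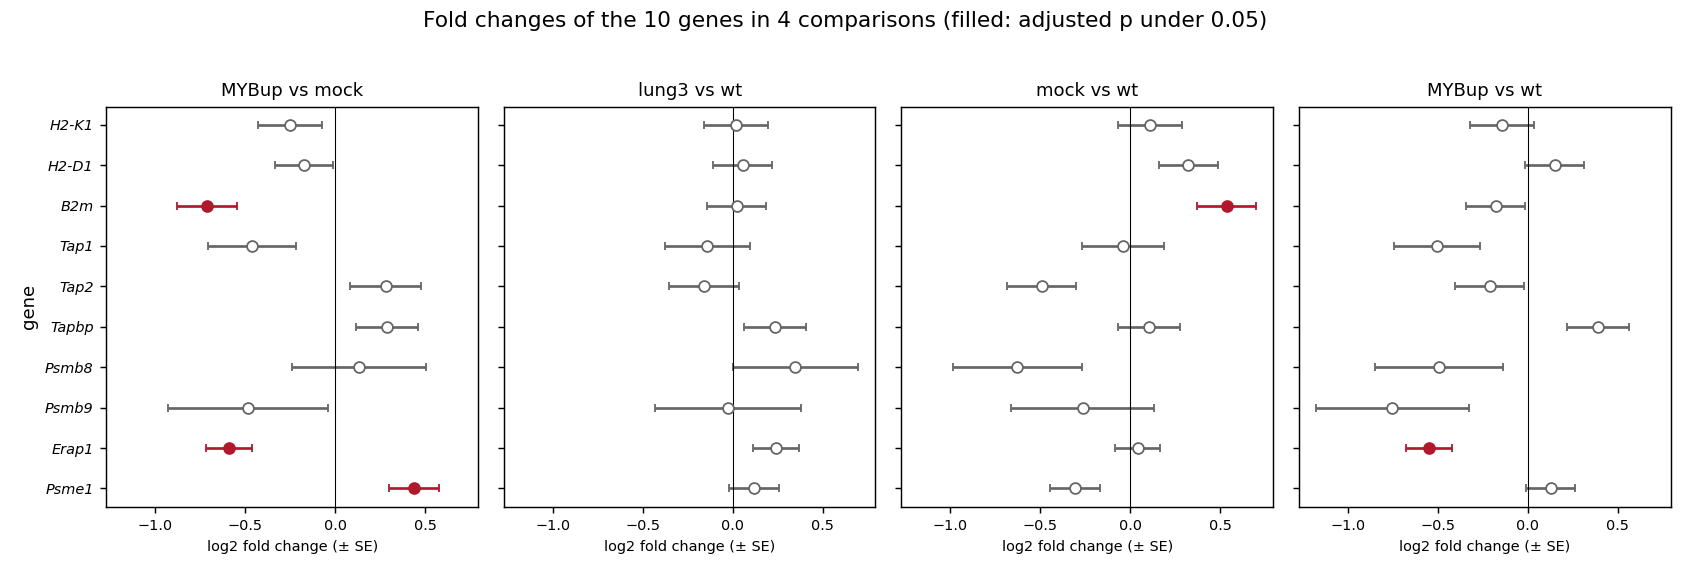
Log2 fold change (x axis, bars ± SE of edgeR's quasi-likelihood test) of each gene (y axis) in 4 comparisons of 3 libraries with 3. Filled red points passed an adjusted p of 0.05: B2m, Erap1 and Psme1 in MYBup against mock, none in lung3 against wt, B2m in mock against wt and Erap1 in MYBup against wt. The comparisons with a group in common share its libraries.

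In cells selected for lung seeding, none of the 10 genes passed the test against wt. The count was 0 of 10 by edgeR, limma voom and DESeq2, with 0 of 10 at an unadjusted p under 0.05, beside 5.36% of all tested genes called by edgeR. The wt and lung3 libraries overlapped for all 10 genes, beside 27.4% of all genes whose groups did not overlap. The log2 fold change was 0.02 for H2-K1 (95% interval -0.33 to 0.37), 0.05 for H2-D1 (-0.26 to 0.37) and 0.02 for B2m (-0.30 to 0.34). Tap1 was -0.14 (SE 0.236), Tap2 -0.16 (SE 0.193), Tapbp 0.23 (SE 0.172), Psmb8 0.35 (SE 0.347), Psmb9 -0.03 (SE 0.407), Erap1 0.24 (SE 0.126) and Psme1 0.12 (SE 0.138), with adjusted p between 0.304 and 0.979.

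Same-numbered wt and lung3 libraries deviated together, so the comparison was also made within numbers. That pairing was read from these same data, as the labels give only the replicate numbers. Tapbp was higher in lung3 in 3 of 3 numbers, by log2 ratios of 0.32, 0.21 and 0.17, and in the fit of these 6 libraries with the replicate number as a block its log2 fold change of 0.24 was called (SE 0.0672, adjusted p = 0.0219). That fit called 17.9% of its 11085 tested genes, with 8.67% higher in lung3, and Tapbp was the only one of the 10 it called. Psmb8 was higher in lung3 in 3 of 3 numbers (0.53, 0.01 and 0.33) with an adjusted p of 0.0594 under the block, and Erap1 in 3 of 3 (0.25, 0.44 and 0.04) with an adjusted p of 0.0571. H2-D1 was also higher in 3 of 3 numbers, by small ratios (0.05, 0.01 and 0.09), with 0.05 under the block (SE 0.0645, adjusted p = 0.646). H2-K1, B2m and Psme1 were higher in 2 of 3 numbers, with blocked log2 fold changes of 0.01 (SE 0.0641), 0.02 (SE 0.0649) and 0.10 (SE 0.0834), and Psmb9 in 1 of 3, with -0.13 (SE 0.242). Tap1 and Tap2 were lower in lung3 in 3 of 3 numbers, at -0.18 (SE 0.154, adjusted p = 0.462) and -0.19 (SE 0.106, adjusted p = 0.237).

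The responses of the 2 study comparisons were set against each other in a test of the difference, which shares no library between its arms. It called 2 of the 10 genes, both lower, beside 19.9% of all tested genes (10.4% higher and 9.52% lower). For Erap1 the change in MYBup against mock lay 0.83 log2 units below that in lung3 against wt (SE 0.18, adjusted p = 0.00644), and it was called in 19 of 19 other settings. For B2m the difference was -0.73 (SE 0.232, adjusted p = 0.0405). The B2m call ended with the replicate number as a block over 12 libraries (adjusted p = 0.0505) and without MYBup replicate 2 or 3, lung3 replicate 3, mock replicate 1 or 2, or wt replicate 1 or 2 (adjusted p 0.0901, 0.0839, 0.0975, 0.0713, 0.068, 0.101 and 0.0916). Cast, which overlaps Erap1, also differed, by -0.50 (SE 0.111, adjusted p = 0.00749). A joint test of any difference among the 4 groups called Erap1 (adjusted p = 0.00115), B2m (0.00878) and Psme1 (0.0477), 3 of 10, beside 60.9% of all tested genes.

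Against untransfected cells, each transfected group had 1 of the 10 genes called. That was B2m, higher in mock, beside 35.9% of all genes called for mock against wt (18.0% higher and 17.9% lower), and Erap1, lower in MYBup, beside 38.2% for MYBup against wt. Groups did not overlap for 2 genes in mock against wt (Tap2 and Psme1, both lower in mock, with adjusted p of 0.0615 and 0.0974), beside 46.9% of all genes, and for 4 genes in MYBup against wt (Tap1, Tapbp, Psmb9 and Erap1), beside 55.6%. Both comparisons use the wt libraries and share mock or MYBup with the comparison above, so their values are only set side by side.

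Ratios within a library do not depend on how libraries are scaled, and are given as values because 3 libraries against 3 cannot pass the threshold. Reads of B2m per read of H2-K1 and H2-D1 together were 1.066, 1.07 and 1.097 in mock, 0.783, 0.744 and 0.731 in MYBup, 0.810, 0.949 and 0.901 in wt, and 0.808, 0.943 and 0.879 in lung3. The mock ratios lay above all other libraries and the MYBup ratios below all others. The log2 difference between MYBup and mock was -0.52 (two-sided exact permutation p = 0.1, the smallest that 3 against 3 can give), and that between mock and wt was 0.28 (exact p = 0.1). The Tap1 to Tap2 ratio was 0.434, 0.474 and 0.320 in mock, 0.259, 0.249 and 0.231 in MYBup, 0.298, 0.297 and 0.305 in wt, and 0.265, 0.333 and 0.317 in lung3, lowest in MYBup and overlapping between mock and lung3, with a log2 difference of -0.71 (exact p = 0.1).

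Psmb8 per read of Psmb5, the constitutive subunit it replaces, was 0.375, 0.335 and 0.215 in mock, 0.240, 0.275 and 0.230 in MYBup, 0.231, 0.249 and 0.622 in wt, and 0.357, 0.363 and 0.738 in lung3. The highest ratio was that of replicate 3 in both wt and lung3, and the lowest mock ratio was that of replicate 3. Of 7 ratios, 4 did not overlap between MYBup and mock, 4 between mock and wt and 0 between lung3 and wt; after adjustment over the 21 tests no p was below 0.263.

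**Figure D3:**
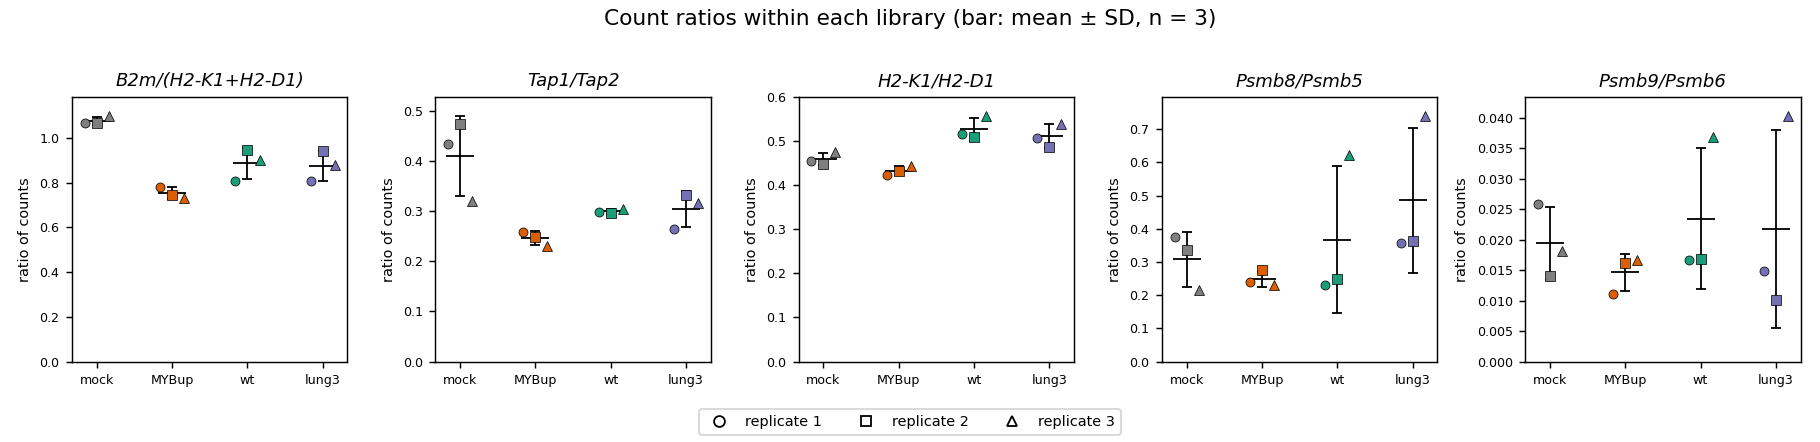
Ratio of read counts within each library (y axis, linear from 0) for 5 pairs of genes by group (x axis). Points are libraries, bars mean ± SD, n = 3; the B2m ratio is 1.066 to 1.097 in mock and 0.731 to 0.783 in MYBup, and Psmb8/Psmb5 is highest in replicate 3 of wt and of lung3.

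Within groups, most of the 10 genes went up and down together from library to library. Wt replicate 3 was the highest wt library for 10 of 10 genes and lung3 replicate 3 the highest lung3 library for 9 of 10, Erap1 being the exception. Wt replicate 2 was the lowest for 8, lung3 replicate 2 the lowest for 9 and mock replicate 3 the lowest for 6. The median deviation of the 10 genes from the group mean was 0.32 log2 units in wt replicate 3, 0.34 in lung3 replicate 3, -0.34 in lung3 replicate 2 and -0.29 in mock replicate 3, whereas the median over all tested genes stayed between -0.01 and 0.01 in these libraries. In MYBup the medians were 0.03, -0.04 and 0.00, so this group was the most even.

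The 21 tested interferon-inducible genes deviated the same way in wt replicate 3 (0.59), lung3 replicate 3 (0.65) and mock replicate 3 (-0.20), and so did 14 other class I and class I-like heavy chains (0.33, 0.26 and -0.18). The 20S proteasome core did not in wt replicate 3 and lung3 replicate 3 (-0.07 and -0.05), but it did in mock replicate 3 (-0.14). The 5 inflammatory genes deviated by -1.52 in mock replicate 3, 0.09 in wt replicate 3 and -1.30 in lung3 replicate 3, so the libraries high in class I genes were not alike in them. The part of these library differences in the comparisons was not tested beyond leaving the libraries out: without wt replicate 3 and lung3 replicate 3 the same 3 genes were called in MYBup against mock and 0 of 10 in lung3 against wt.

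Across the 12 libraries, deviations from the group mean had Pearson's r between 0.509 and 0.979 for the 36 pairs of genes that leave out Erap1, with the highest for H2-K1 and H2-D1 (0.979), Tap2 and Psmb9 (0.956) and Tap1 and Psmb8 (0.952). The 9 pairs with Erap1 had r from -0.274 to 0.326. Without wt replicate 3 and lung3 replicate 3, r over the other 10 libraries ran from -0.506 to 0.986 for the 36 pairs, with 29 of them above 0, so much of the shared movement rested on those libraries. The 9 pairs with Erap1 then ran from -0.848 to -0.232, all below 0. These are descriptions over libraries that share depth and preparation.

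**Figure D4:**
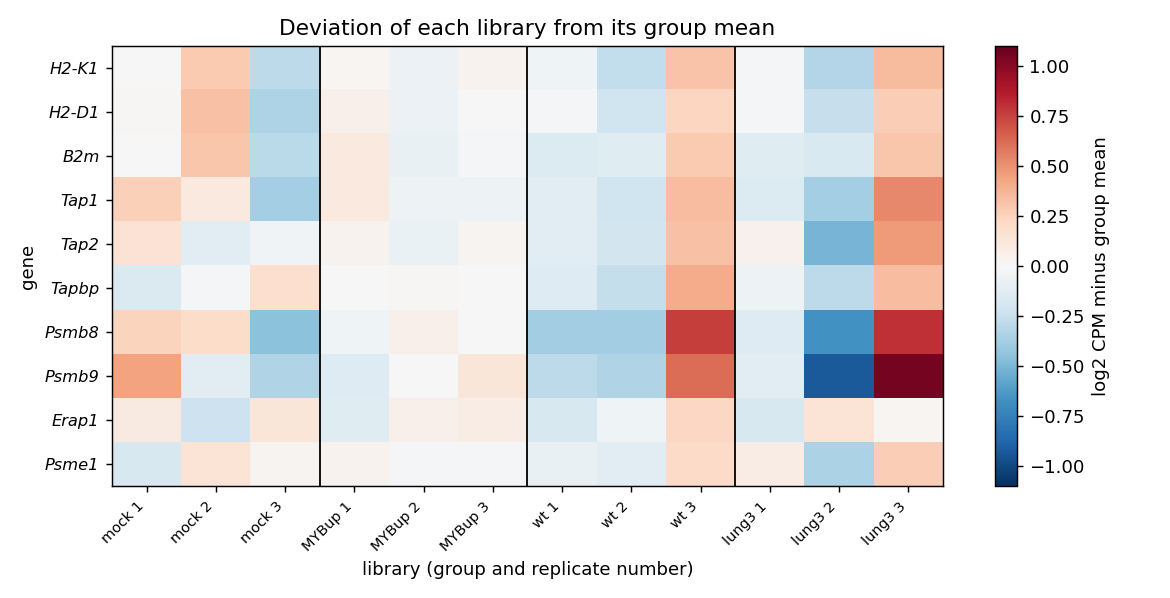
Deviation of log2 CPM from the mean of its group (colour, red above and blue below) for the 10 genes (rows) in the 12 libraries (columns). Wt replicate 3 is red for all 10 genes and lung3 replicate 3 for 9 with Erap1 near 0, lung3 replicate 2 is blue for 9, and the MYBup columns are pale.

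Other genes of the pathway moved in small numbers in MYBup against mock. Lists were read against the background of 14.3% of all genes called higher and 12.6% called lower, and against 2.91% higher and 2.44% lower in lung3 against wt. Of 13 tested processing, loading and trimming partners, 1 rose in MYBup against mock: Calr, for the chaperone calreticulin of the loading complex (0.33, SE 0.0941, adjusted p = 0.0203). Of 17 core proteasome genes 4 rose and none fell by edgeR, namely Psmb5 (0.45, SE 0.123), Psmb4 (0.41, SE 0.0972), Psma5 (0.35, SE 0.12) and Psmb1 (0.34, SE 0.104). Of 19 genes of the 19S cap and other activators, Psmd1 (0.32) and Psmd6 (0.29) rose and Psmd8 fell by 0.27. Without mock replicate 3 and lung3 replicate 3 the calls of Calr, Psma5, Psmb1 and Psmd8 ended (adjusted p 0.0603, 0.172, 0.11 and 0.0737). In MYBup against wt, edgeR called Psmb1 (0.28), Psmb4 (0.27) and Psmd1 (0.18) higher and Psmd8 (-0.30) lower. Their adjusted p were 0.0455, 0.040, 0.0433 and 0.023. Calr (0.24), Psma5 (0.20), Psmb5 (0.02) and Psmd6 (-0.02) were not called there, with adjusted p between 0.0584 and 0.899. Psmb5 and Psmd6 were called lower in mock than in wt (-0.43 and -0.31, adjusted p = 0.0145 and 0.00591). In lung3 against wt, edgeR called 0 genes of these 3 lists without pairing. With the replicate block on 6 libraries it called 2 of 13, 3 of 17 and 4 of 19, all higher in lung3, beside 8.67% of all genes called higher in that fit.

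Among 14 tested other class I and class I-like heavy chains, 2 rose and 2 fell in MYBup against mock. Cd1d1, which presents lipids to natural killer T cells, was 3.14 to 4.03 CPM in mock and 11.2 to 12.5 in MYBup, and rose by 1.66 on the log2 scale (SE 0.225, adjusted p = 0.000167). H2-M3, which presents formylated peptides, rose by 0.45 (SE 0.124). H2-Q7, a Qa-2 heavy chain, was 3.07 to 5.28 CPM in mock and 1.33 to 1.41 in MYBup and fell by 1.59 (SE 0.355, adjusted p = 0.00502), although it has near copies that could take its reads. Hfe, which regulates iron uptake, fell by 1.28 (SE 0.357). All of these pair with beta-2 microglobulin in the protein. In lung3 against wt, 0 of the 14 were called without pairing, and 1 higher and 1 lower with the replicate block. That block fit called 17.9% of all genes in either direction.

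Of 33 tested regulators of class I genes, 6 rose and 5 fell in MYBup against mock, and the list had a median log2 fold change of 0.00. Nlrc5, the class I transactivator, was 11.6, 8.20 and 6.995 CPM in mock and 4.64, 4.51 and 4.27 in MYBup, with no overlap, and fell by 1.01 (SE 0.257, adjusted p = 0.0107). Wt had 9.50, 7.44 and 12.5 CPM of Nlrc5 and lung3 9.46, 9.47 and 15.5, with replicate 3 again the highest in each. Irf2 fell by 0.40 (SE 0.082) and the NF-kB subunit gene Relb by 0.57 (SE 0.139). In lung3 against wt, Irf1 (0.50, SE 0.133) and the interferon receptor gene Ifnar2 (0.57, SE 0.152) rose and Irf8 fell by 0.83 (SE 0.133). With the replicate block 5 of 33 were higher and 3 lower, beside 17.9% of all genes called in either direction and 8.67% called higher. The Irf1 call ended without mock replicate 3 and lung3 replicate 3 (0.43, adjusted p = 0.141), and those of Irf1 (adjusted p = 0.0569) and Ifnar2 (adjusted p = 0.0523) without wt replicate 3 and lung3 replicate 3. Nlrc5, Irf1, Ifnar2 and Cxcl10 share exon bases with other annotated genes, so part of their reads may be assigned to either.

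Of 21 tested interferon-inducible genes, 1 rose in MYBup against mock, Gbp7 (1.38, SE 0.378), beside the 14.3% of all genes called higher. In lung3 against wt 2 rose, beside 2.91% of all genes called higher: the chemokine gene Cxcl10 (1.14, SE 0.267) and the antiviral gene Rsad2 (2.20, SE 0.577). Rsad2 was 0.364, 0.289 and 0.863 CPM in wt and 1.38, 0.693 and 4.44 in lung3, highest in replicate 3 of each. It had 128 counts over the 12 libraries and at most 0.131 CPM in mock and MYBup. It thus passed the filter on low counts through lung3, where it is high, and wt replicate 3. Without mock replicate 3 and lung3 replicate 3 both calls ended, at 0.91 for Cxcl10 (adjusted p = 0.112) and 1.14 for Rsad2 (adjusted p = 0.263). Without wt replicate 3 and lung3 replicate 3, Cxcl10 was not called (1.04, adjusted p = 0.0926) and Rsad2 was not tested. With the replicate block on 6 libraries, 8 of 20 tested rose in lung3 and none fell by edgeR, beside 8.67% of all genes called higher in that fit. The list median was -0.06 in the first comparison and 0.47 in the second, beside 0.00 for all genes in both.

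Of 11 tested ligands of natural killer and checkpoint receptors, 6 fell in MYBup against mock and none rose by edgeR. Raet1d and Raet1e, ligands of the activating receptor NKG2D, fell by 1.76 (SE 0.296) and 1.25 (SE 0.251), and share exon sequence with each other. Raet1d averaged 3.60 CPM in mock, 1.077 in MYBup and 0.459 in wt, and Raet1e 6.15, 2.59 and 1.01, so mock was the high group and both were higher in MYBup than in wt (1.22, SE 0.376, adjusted p = 0.021, and 1.35, SE 0.292, adjusted p = 0.00311). Pvr and Nectin2, ligands of the receptor DNAM-1, fell by 0.52 (SE 0.084) and 0.52 (SE 0.123), with MYBup below wt as well, at log2 fold changes of -0.40 (SE 0.0837, adjusted p = 0.00237) and -0.68 (SE 0.121, adjusted p = 0.000885). Of the 11 ligands, 4 were called higher and 1 lower in mock against wt, beside 18.0% and 17.9% of all genes. In MYBup against wt 3 were called higher and 3 lower, beside 19.4% and 18.7% of all genes. Pvr rose in lung3 against wt (0.39, SE 0.083, adjusted p = 0.0151), as did the galectin gene Lgals9 (0.75, SE 0.152). Without mock replicate 3 and lung3 replicate 3 Pvr was not called in lung3 against wt (adjusted p = 0.0664). Nor was it called there without wt replicate 3 and lung3 replicate 3 (adjusted p = 0.0600). The replicate block called 3 of 10 tested ligands higher and 1 lower there, beside 17.9% of all genes in either direction and 8.67% higher. Cd274, for PD-L1, had 1.26 in MYBup against mock (SE 0.464, adjusted p = 0.0603). In the class II pathway only 3 of 12 genes had enough counts to test. H2-DMa (1.71, SE 0.187) and the lysosomal reductase gene Ifi30 (0.62, SE 0.149) rose in MYBup against mock, and Cd74 was not called. H2-DMa averaged 2.55 CPM in mock, 8.33 in MYBup and 2.83 in wt. Ifi30 averaged 27.8, 42.6 and 53.8, so its MYBup mean lay below that of wt. H2-DMa shares exon bases with Brd2 on the other strand.

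**Figure D5:**
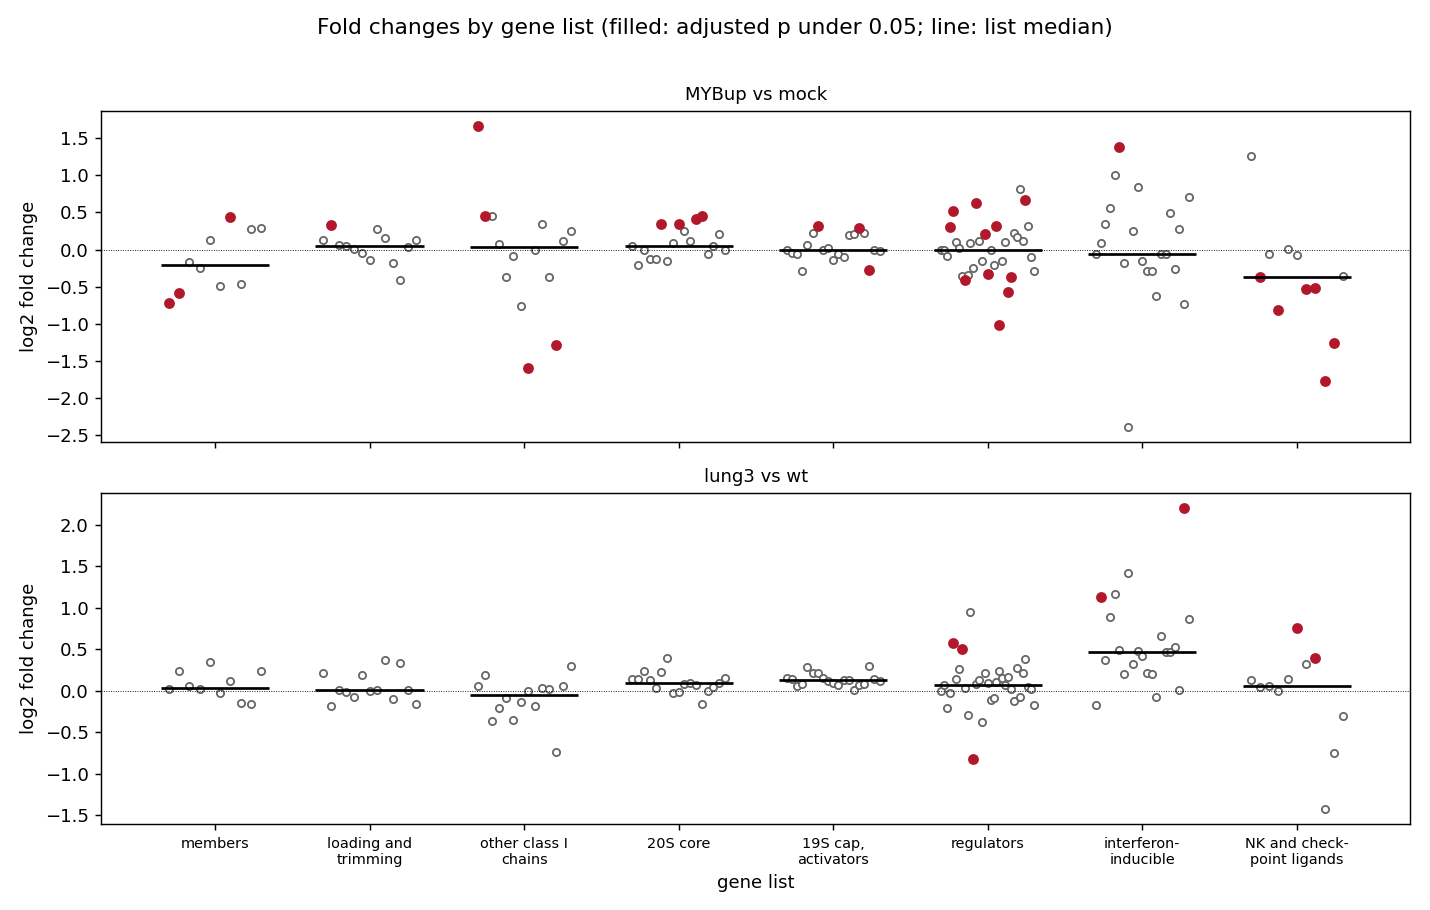
Log2 fold change (y axis) of each tested gene in the 10 members and 7 related lists (x axis) for MYBup against mock (upper) and lung3 against wt (lower). Filled red points passed an adjusted p of 0.05 and the line is the list median; 6 of 11 ligands of natural killer and checkpoint receptors are red and below 0 in the upper panel, and 0 members are red in the lower one.

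The genes with the most similar level over the 12 libraries were taken for the members, among genes whose mean log2 CPM reached 3. Erap1 was closest to Lrrk2 (r = 0.977) and Usp46 (0.976), and B2m to Padi2 (0.948) and Spp1 (0.929). H2-K1 was closest to the class I gene H2-Q6 (0.856) and to Tpst1 (0.84), and Tap1 to Gm11127 (0.905) and H2-Q6 (0.82). H2-D1 was closest to Fah (0.928), Tap2 to Hacd4 (0.844) and Stat2 (0.838), Tapbp to the interferon gamma receptor gene Ifngr1 (0.884), Psmb8 to Nbl1 (0.884) and Psme1 to Sphk1 (0.895). These r are over 12 libraries in 4 groups and carry no test.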

How the data were processed

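The authors deposited 1 table of raw read counts per gene for 12 libraries, not normalised. The submitters' processing notes name STAR, edgeR and GRCm38. Their versions, the tool that made the counts, its annotation and whether it used strand are not stated there. Per the labels' protocols, libraries were made with a TruSeq RNA kit. Values over 4 digits (2708) are rounded to 4 significant digits. Symbols, exon lengths and coordinates (1-based) are from GENCODE M21 on GRCm38, and 22570 of 22880 features matched a symbol. Every column of the table was used.

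Tests used R 4.3.3 and edgeR 4.0.16 (quasi-likelihood F test, TMM, filterByExpr, all 12 libraries in a single fit with a term per group), with Benjamini-Hochberg adjustment over 11291 tested genes and a threshold of 0.05. CPM used TMM factors, SE is the absolute log2 fold change over the square root of F, and intervals are normal 95% intervals from that SE. Alternatives were DESeq2 1.42.0, limma voom 3.58.1, RLE factors, no filter, 6-library fits, the replicate block and leaving out libraries. Ratios added 0.5 to counts before the log. On simulated data for MYBup against mock (11202 genes) the test recovered 68.7% of genes changed 1.5-fold, 87.9% of 2-fold and 97.0% of 4-fold; 8.20% of its calls were false. The chi-square per gene between replicates of a group was 2.24 to 36.1, above sampling noise, so none were merged.

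Residuals of same-numbered wt and lung3 libraries correlated at 0.294 to 0.329 and those of unlike numbers at -0.212 to -0.093, so the numbers, which the labels give, were taken to pair those libraries; this was not so for the other groups. The members and lists were chosen with earlier results of these data known. Named were all members, up to 4 called genes of each list per study comparison with the smallest adjusted p, and the 2 most similar genes of each member; Cd274, Psme2 and the genes sharing exons with members were named after their values were seen. Some genes that this rule takes are not reported here.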

Additional observations from a re-analysis of the deposited data

How the results depend on the processing

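The 2 falls in MYBup against mock, of B2m and Erap1, were called under all 21 other settings, and 2 to 4 members were called when libraries were left out; Psme1 was called in 15 of 21. In lung3 against wt, 0 members were called in every setting except the fit of 6 libraries with the replicate block, which called 1 (Tapbp). With that block on 6 libraries the related lists and cell type markers together had 18 genes called in MYBup against mock in place of 33, and 36 in lung3 against wt in place of 8, and DESeq2 called 17 in the latter. Leaving out libraries gave 21 to 39 of these genes in MYBup against mock and 2 to 15 in lung3 against wt, the lowest without wt replicate 1 or 2 and the highest without mock replicate 2. In the single fit of 12 libraries Cd14 was the only marker called in these 2 comparisons. In lung3 against wt the block on 6 libraries also called 1 fibroblast marker lower, and of 6 epithelial markers 1 higher and 1 lower. Each of the 2 settings that left out 2 libraries together also called 1 fibroblast marker lower and 1 epithelial marker higher there. In mock against wt, 2 members were called (B2m and Tap2) with 6 libraries, DESeq2, no filter and the replicate block on 12 or 6 libraries, in place of 1, and 0 to 3 with libraries left out. In MYBup against wt, 2 were called with 6 libraries and with the replicate block on 12 libraries and 3 with the block on 6, in place of 1, and 1 to 2 with libraries left out. For the difference of the study comparisons the replicate block on 12 libraries called 1 in place of 2, and leaving out libraries 1 to 2. The joint test called 2 to 5. Apart from lung3 against wt the numbers do not pair the samples, and the block left B2m and Erap1 called in MYBup against mock and took away Psme1 (adjusted p = 0.0587 with 6 libraries). The cause of these shifts was not tested.

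No called value changed sign. Of the uncalled ones, leaving out libraries moved H2-D1 in MYBup against mock from -0.33 to 0.0012 and Psmb8 from -0.058 to 0.26. In lung3 against wt it moved H2-K1 from -0.18 to 0.19, H2-D1 from -0.092 to 0.18, B2m from -0.15 to 0.18, Tap1 from -0.48 to 0.051, Tap2 from -0.43 to 0.038, Psmb8 from -0.17 to 0.83, Psmb9 from -0.78 to 0.37 and Psme1 from -0.024 to 0.27. The settings without mock replicate 3 and lung3 replicate 3 together, and without wt replicate 3 and lung3 replicate 3 together, were chosen after seeing the data. Depth limits Psmb9 most, with 9 counts in its shallowest library. By longest transcript in place of union exon length, all 10 genes held the same rank in every group, against 7 by union length; leaving out libraries gave 5 to 8.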
